A study of Homo sapiens with 6 samples.

Results

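The glycosyltransferases and glycan sulfotransferases build and modify the sugar chains of glycoproteins, glycolipids and proteoglycans. They were taken as every gene on the array whose platform symbol opens with ST3GAL, ST6GAL, ST8SIA, B3GNT, B3GAL, B4GAL, EXT1, EXT2, EXTL, HS2ST, HS3ST, HS6ST or NDST, or with GALNT, FUT, MGAT or CHST and a digit. In all, 81 of 11963 named genes met this rule, measured by 131 probe sets, and each gene was read from its brightest probe set by mean across the 6 arrays. The study profiled total RNA of the human glioblastoma lines T98G and U87MG, both established cell lines, on 3 Affymetrix arrays each. Both lines were grown in the same serum-containing medium, and the labels name no treatment, gene change or time point for any array. The labels describe T98G as sensitive to bortezomib- and G5-induced apoptosis with partial protection from G5-induced necrosis, and U87MG as protected from that apoptosis and sensitive to the necrosis. Each line comes from 1 tumour, so the differences describe these 2 lines only. The labels do not say whether the arrays of a line came from separate cultures, and p-values therefore measure only the spread between these arrays. In total RNA, fewer cells that express a gene and less RNA per cell cannot be told apart. Levels are log2 values per probe set, differences are T98G minus U87MG on that scale, and a level is compared between the lines, not between genes.

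Sugar chains are assembled in the endoplasmic reticulum and Golgi by enzymes that each add 1 kind of sugar, or a sulfate group, at 1 kind of site. Polypeptide N-acetylgalactosaminyltransferases start mucin-type chains, MGAT enzymes branch the chains on asparagine, galactosyl- and N-acetylglucosaminyltransferases lengthen chains, and sialyl- and fucosyltransferases cap them. On proteoglycans the EXT enzymes polymerise heparan sulfate. There NDST, HS2ST, HS3ST, HS6ST and several CHST enzymes place the sulfates that growth factors and matrix proteins bind. Gliomas are known for changed gangliosides, N-glycan branching and chondroitin sulfate, and all 3 products depend on these enzymes.

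Across probe sets, r was 0.934 to 0.939 between T98G and U87MG arrays and 0.990 to 0.997 within a line. The 24 poly-A controls averaged 5.30 in U87MG replicate 3, whereas the remaining arrays had 6.10 to 6.84. That replicate held the lowest U87MG value for 26 members and the highest for 33 of 81. Control probe sets for the bacterial gene TrpnX read 3.32 to 4.03, and 4.03 was used as the bottom of the scale. VIM, the intermediate filament of glial and mesenchymal cells, had 14.59 in T98G and 14.85 in U87MG, and CD44 had 13.93 in T98G and 13.68 in U87MG. The astrocyte markers GFAP, at 6.42 in T98G and 6.52 in U87MG, and S100B, at 4.13 in T98G and 4.23 in U87MG, were not called, and S100B lay close to that bottom in both lines. Of the 12 glial markers, 4 were called (33.3%, against 13.6% of all genes). SOX9 and GLUL were higher in T98G by 1.99 and 1.24 on the log2 scale, and NES and SLC1A3 were lower with differences of -2.55 and -1.04. Of the markers of other cell types, limma called 1 of 7 immune, 1 of 6 endothelial and 1 of 6 epithelial genes, against 13.6% of all genes. It called 3 of 9 neuronal and 0 of 7 oligodendrocyte genes. The differences were -1.02 for CSF1R (immune), -3.27 for KDR (endothelial), 5.48 for KRT18 (epithelial), and 2.02, -1.60 and -3.71 for MAP2, SNAP25 and GAD1 (neuronal). PTPRC, the leukocyte marker, averaged 4.33 on T98G arrays and 4.55 on U87MG arrays, and PECAM1, the endothelial marker, 5.01 on T98G arrays and 5.08 on U87MG arrays. The part of other cell types in the results was not tested.

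Of the 81 enzyme genes, limma called 3 higher and 10 lower in T98G, a call being an adjusted p under 0.05 together with a change of 2-fold or more. Those 13 genes were 16.0% of the members, against 13.6% of all genes tested called in either direction. Called higher in T98G were 3.70% of members and 7.01% of all genes, and called lower 12.3% of members and 6.56% of all genes. The share called in either direction was therefore near the background, while the split by direction was not tested. The median difference was 0.02 for members and 0.01 for all genes. At any fold, 37 of 81 members (45.7%) had an adjusted p under 0.05, against 41.3% of all genes. Of the 81, 17 were higher in T98G, against 21.7% of all genes, and 20 lower, against 19.7%. The arrays of the lines did not overlap for 48 of 81 members (59.3%), against 52.0% of all genes. A difference of at least 8-fold was found for 4 of 81 members, against 2.43% of all genes. The 4 were HS3ST3A1, GALNT12 and GALNT6, lower in T98G, and CHST15, higher in T98G. Among the 61 glycosyltransferase genes 0 were higher, 6 lower and 55 neither (9.84% called, against 13.6% of all genes). Among the 20 sulfotransferase genes 3 were higher, 4 lower and 13 neither (35.0% called). The 13 called members fell in 6 of 13 families, and no ST3GAL, ST8SIA, FUT, B3GNT, MGAT, EXT or NDST gene was called. Of the 37 genes of those families, 9 had a limma adjusted p under 0.05 short of 2-fold, against 27.7% of all genes, and 13 had an unadjusted p under 0.05, against 47.8% of all genes.

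**Figure D1:**
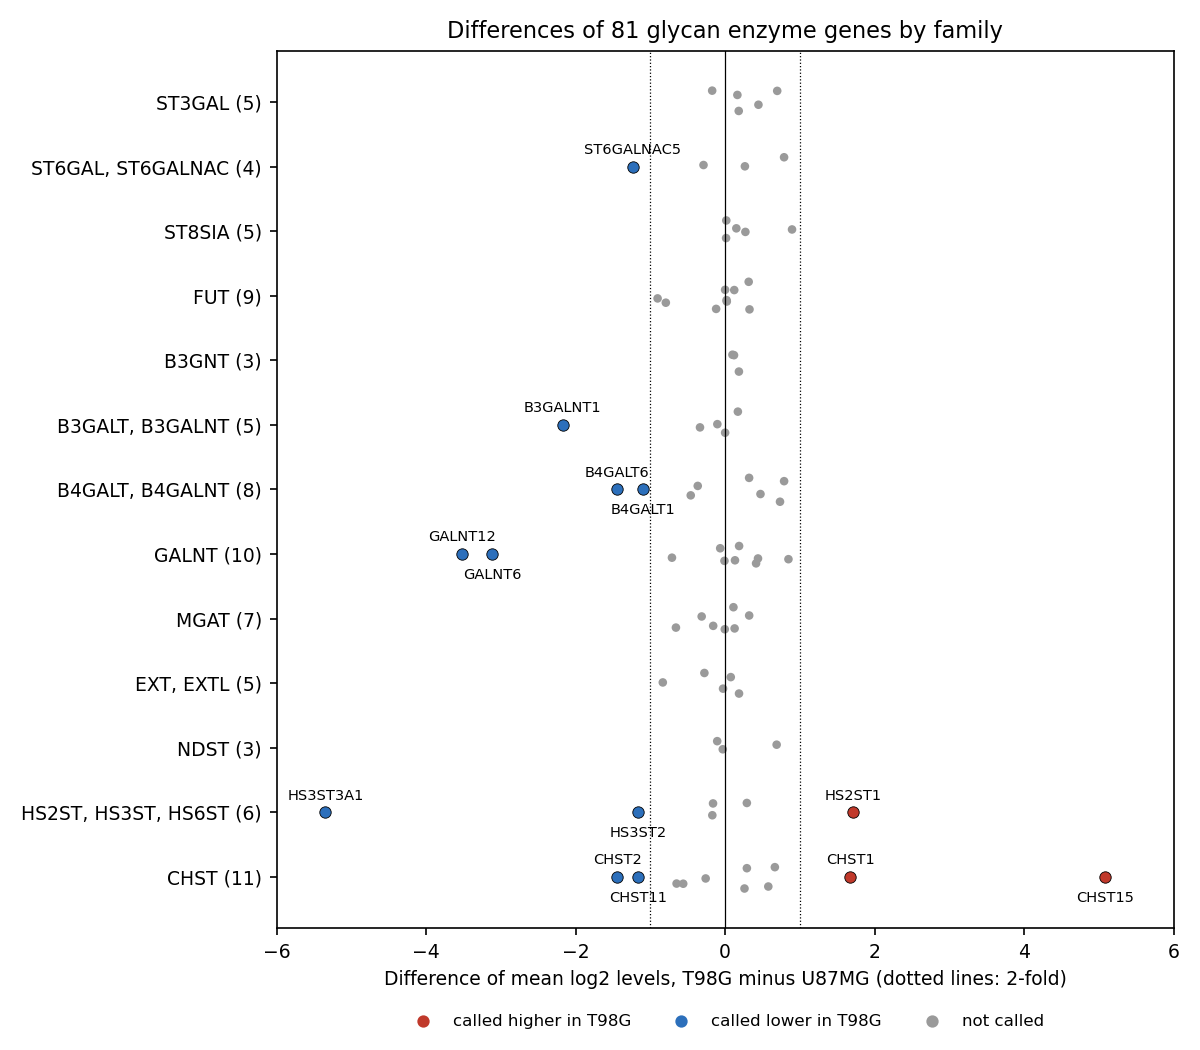
Each point is 1 of the 81 genes, placed by its difference of mean log2 levels (T98G minus U87MG, 3 arrays per line) and grouped by family with the number of genes in brackets; filled red and blue points were called higher and lower in T98G and grey points were not called. HS3ST3A1 lies at -5.35 and CHST15 at 5.08, while the 3 B3GNT genes lie between 0.10 and 0.18.

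The heparan sulfate O-sulfotransferases held the furthest difference. HS3ST3A1 places a rare sulfate on the glucosamine of heparan sulfate, the modification that herpes simplex virus glycoprotein D binds. Its level was 5.96, 5.69 and 5.91 on the T98G arrays, against 11.21, 11.40 and 10.97 on the U87MG arrays. Every U87MG array was far above every T98G array, a 40.7-fold lower level in T98G (log2 -5.35, SE 0.13, limma adjusted p = 5.24e-09). HS3ST2, a relative best known from neurons, had 5.37, 5.30 and 5.93 in T98G, against 6.67, 6.84 and 6.59 in U87MG. It was lower in T98G as well, by 2.24-fold (log2 -1.17, SE 0.17, adjusted p = 0.000347). HS3ST3B1, which makes the same kind of product as HS3ST3A1, had 4.65, 4.62 and 4.44 in T98G and 4.74, 4.74 and 4.75 in U87MG. It stayed within 1 log2 unit of the bottom of the scale in both lines and was not called (difference -0.17, 95% interval -0.40 to 0.05).

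HS2ST1, which sulfates the uronic acid of heparan sulfate, ran the other way. The T98G arrays gave 10.13, 10.26 and 10.15, against 8.62, 8.54 and 8.26 in U87MG, and the groups were well apart. Its level was 3.27-fold higher in T98G (log2 1.71, SE 0.12, adjusted p = 2.57e-06), with a second probe set at 1.60 also called and another at 0.93 short of 2-fold. HS6ST1, which sulfates the glucosamine at another carbon, had 7.48, 7.59 and 7.06 in T98G and 7.16, 7.16 and 6.95 in U87MG. Its arrays overlapped, and the difference of 0.29 (-0.04 to 0.62) was not called. HS3ST1, which makes the antithrombin-binding site of heparin, was read from a probe set at 5.93 ± 0.13 in T98G and 6.09 ± 0.10 in U87MG (SD, n = 3 each) that was not called. Another probe set of HS3ST1 was dimmer by mean across the 6 arrays but the brightest of its 3 in T98G. It gave 7.03, 6.81 and 6.68 in T98G and 4.04, 4.07 and 4.27, near the bottom of the scale, in U87MG. On that probe set HS3ST1 was 6.56-fold higher in T98G (log2 2.71, SE 0.12, adjusted p = 3.10e-07 over all probe sets), while its other probe set gave 0.13, so its direction rests on the choice of probe set.

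**Figure D2:**
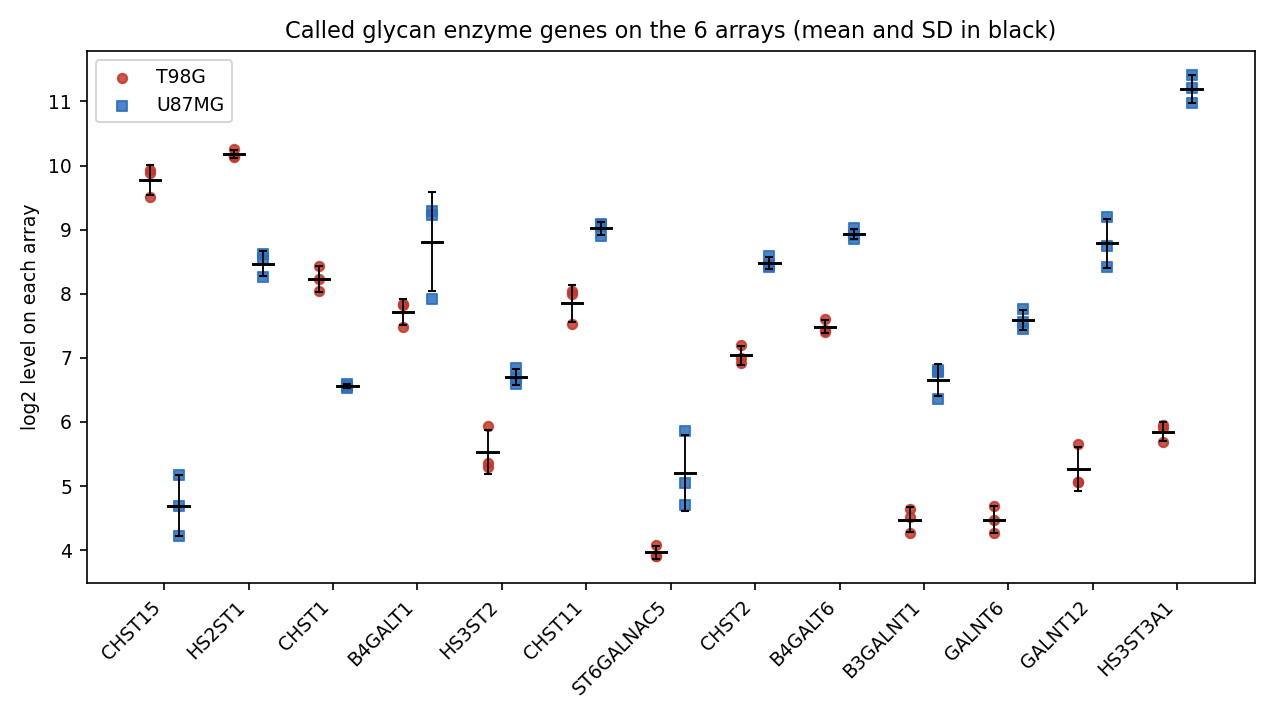
Log2 levels of the 13 called genes on each array, with T98G (red circles) left of U87MG (blue squares) for each gene and black bars for the mean and SD of 3 arrays, ordered by the difference from highest to lowest. The lines do not overlap for any of the 13, but for B4GALT1 the U87MG value of 7.92 lies just above the highest T98G value of 7.84.

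The DNA just ahead of the gene start is shown for HS3ST3A1, CHST15 and GALNT12, which are among the members with the furthest differences. It is also shown for HS3ST3B1, the relative of HS3ST3A1 on the same chromosome that stayed low in both lines. GALNT6, the other member with a difference of at least 8-fold, had no such sequence available. The sequences are the 250 bases before each start in RefSeq (GRCh38.p14), 5′ to 3′ on the gene's strand, with every GGGCGG or CCGCCC (the GC box, a motif bound by SP-family factors, read on both strands with overlaps allowed) in capitals. HS3ST3A1 is at chr17:13601930-13602179 on the minus strand, HS3ST3B1 at chr17:14300831-14301080 on the plus strand, CHST15 at chr10:124093599-124093848 on the minus strand and GALNT12 at chr9:98807420-98807669 on the plus strand.
HS3ST3A1: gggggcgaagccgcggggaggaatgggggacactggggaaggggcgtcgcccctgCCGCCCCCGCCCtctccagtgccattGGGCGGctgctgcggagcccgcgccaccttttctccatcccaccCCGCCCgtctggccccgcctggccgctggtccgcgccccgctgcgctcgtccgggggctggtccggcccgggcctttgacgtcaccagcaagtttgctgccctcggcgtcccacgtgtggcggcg
HS3ST3B1: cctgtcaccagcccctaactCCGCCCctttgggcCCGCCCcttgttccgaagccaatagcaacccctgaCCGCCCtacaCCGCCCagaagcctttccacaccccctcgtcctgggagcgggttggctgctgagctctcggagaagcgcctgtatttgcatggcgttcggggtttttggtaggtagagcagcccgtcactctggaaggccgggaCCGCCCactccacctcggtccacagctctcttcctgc
CHST15: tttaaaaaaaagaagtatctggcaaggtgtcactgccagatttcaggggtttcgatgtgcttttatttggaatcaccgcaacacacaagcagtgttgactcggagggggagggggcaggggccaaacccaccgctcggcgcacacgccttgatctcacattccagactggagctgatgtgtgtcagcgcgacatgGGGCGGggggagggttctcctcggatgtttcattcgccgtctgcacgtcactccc
GALNT12: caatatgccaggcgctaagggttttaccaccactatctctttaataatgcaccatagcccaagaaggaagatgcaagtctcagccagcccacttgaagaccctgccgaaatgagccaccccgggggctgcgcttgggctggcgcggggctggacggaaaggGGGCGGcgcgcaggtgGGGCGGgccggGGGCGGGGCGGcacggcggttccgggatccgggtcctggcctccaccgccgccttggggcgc
The GC box occurred 4 times ahead of HS3ST3A1, 5 times ahead of HS3ST3B1, 1 time ahead of CHST15 and 4 times ahead of GALNT12. HS3ST3A1 and HS3ST3B1 thus both carried it, with GC contents of 76.0% and 64.0%. Of all 27305 windows of this length in the table, 42.3% held a GC box. Among the 63 members with a window, 43 (68.3%) held one, 9 of 10 called members and 34 of 53 others. The TATA box TATAAA was in 2 member windows (3.17%), against 11.1% of all windows. The AP-1 motif TGANTCA was in 4 (6.35%), against 6.60%, and the E-box CACGTG in 5 (7.94%), against 6.49%, each motif read on both strands. The median GC content was 65.2% for members and 58.0% for all windows. These matches describe the letters only and no binding was measured.

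The CHST sulfotransferases, which act on chondroitin sulfate, keratan sulfate and other chains, moved both ways. Of 11 CHST genes, 2 were higher in T98G, 2 lower and 7 neither (36.4% called, against 13.6% of all genes). CHST15 adds the second sulfate that makes the disulfated chondroitin sulfate E unit. Its level was 9.89, 9.50 and 9.93 in T98G, against 4.68, 4.22 and 5.18 in U87MG. The U87MG arrays lay near the bottom of the scale, and CHST15 was 33.8-fold higher in T98G (log2 5.08, SE 0.22, adjusted p = 9.79e-08). CHST11, which places the sulfate on which CHST15 builds, had 7.99, 8.05 and 7.52 in T98G and 8.91, 9.09 and 9.07 in U87MG. It was 2.25-fold lower in T98G (log2 -1.17, SE 0.15, adjusted p = 0.000153). CHST12, a second enzyme for the same site, had 10.19 ± 0.05 in T98G and 9.61 ± 0.13 in U87MG, a difference of 0.58 that did not reach 2-fold (adjusted p = 0.00155). The chondroitin 6-sulfotransferases CHST3 and CHST7 had differences of -0.26 and -0.56, and neither was called.

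CHST1, which sulfates the galactose of keratan sulfate, had 8.04, 8.44 and 8.23 in T98G, against 6.59, 6.53 and 6.57 in U87MG. It was 3.19-fold higher in T98G (log2 1.67, SE 0.12, adjusted p = 3.14e-06). CHST2, which sulfates N-acetylglucosamine and takes part in making selectin ligands, had 7.20, 6.99 and 6.93 in T98G, against 8.58, 8.41 and 8.45 in U87MG. It was 2.72-fold lower in T98G (log2 -1.44, SE 0.11, adjusted p = 5.51e-06). The other 4 CHST genes, CHST4, CHST5, CHST8 and CHST10, had differences of 0.67, 0.29, 0.26 and -0.65. CHST10, which sulfates the HNK-1 epitope of neural adhesion molecules, and CHST4 had an adjusted p under 0.05 short of 2-fold.

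**Figure D3:**
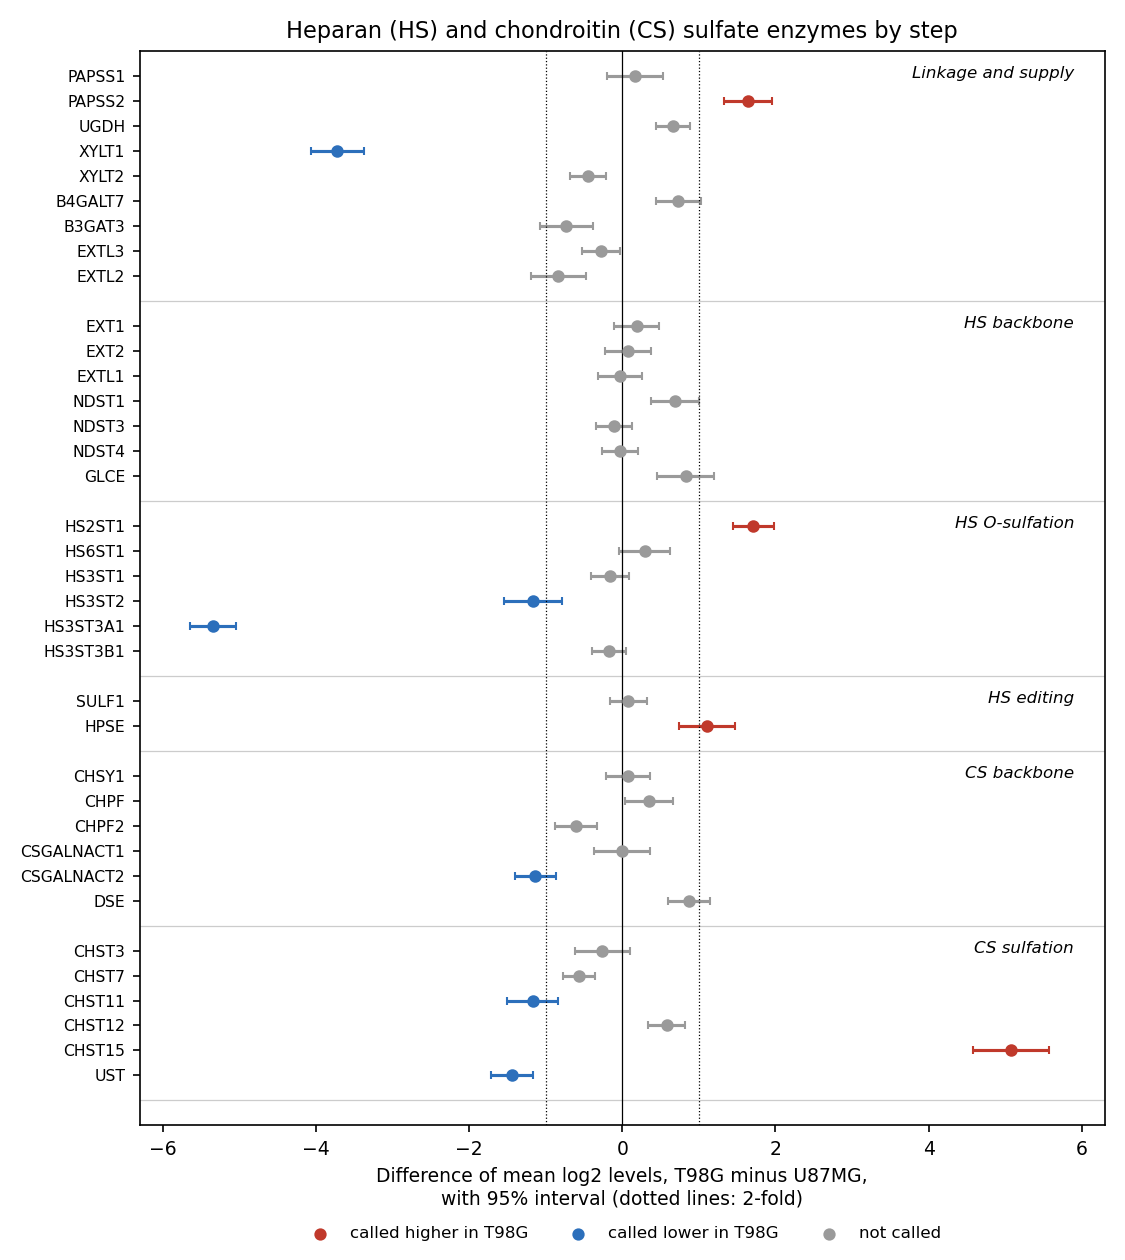
Differences of mean log2 levels (T98G minus U87MG) with 95% intervals from limma for enzymes of heparan sulfate (HS) and chondroitin sulfate (CS), ordered by step from donor supply and linkage at the top to sulfation. The backbone enzymes EXT1 and EXT2 lie at 0.19 and 0.08, while HS3ST3A1 and XYLT1 lie at -5.35 and -3.72 and CHST15 at 5.08.

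None of the enzymes that build the heparan sulfate backbone was called, each read from its brightest probe set. EXT1 and EXT2, the 2 subunits of the polymerase, had 11.66 ± 0.06 and 10.70 ± 0.04 in T98G and 11.48 ± 0.23 and 10.63 ± 0.26 in U87MG. Their differences of 0.19 (-0.10 to 0.47) and 0.08 (-0.23 to 0.38) were not called, and on these probe sets both intervals leave out a 2-fold difference. A dimmer probe set of EXT1 had -0.48 (-1.16 to 0.20), uncalled, with an interval that includes a 2-fold lower level in T98G. The dimmer one of EXT2 had 0.01 (-0.25 to 0.27). EXTL2, which can end the chain early by modifying its linkage region, had 9.76, 9.29 and 9.95 in T98G and 10.57, 10.53 and 10.40 in U87MG. The arrays did not overlap, but the difference of -0.83 (SE 0.16, adjusted p = 0.00225) was short of 2-fold. NDST1, which swaps acetyl for sulfate groups ahead of the O-sulfotransferases, had 9.99, 10.29 and 9.96 in T98G, against 9.19, 9.39 and 9.59 in U87MG. Its difference of 0.69 (SE 0.14, adjusted p = 0.00270) was also short of 2-fold, while NDST3 and NDST4 had -0.11 and -0.03. EXTL1 and EXTL3 had -0.03 and -0.28.

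Among the 10 enzymes that start mucin-type chains, 0 were higher, 2 lower and 8 neither in T98G. Of all genes, 13.6% were called in either direction, and the family was not tested as a set. GALNT12 had 5.07, 5.07 and 5.66 in T98G, against 8.75, 9.19 and 8.42 in U87MG. Its level was 11.5-fold lower in T98G (log2 -3.52, SE 0.21, adjusted p = 1.04e-06), on a single probe set. GALNT6 had 4.48, 4.27 and 4.68 in T98G, against 7.55, 7.76 and 7.45 in U87MG. The T98G arrays were within 1 log2 unit of the bottom of the scale, and GALNT6 was 8.65-fold lower (log2 -3.11, SE 0.13, adjusted p = 8.74e-08). The widely expressed members differed less. GALNT1 had a difference of 0.19 (-0.06 to 0.43) and GALNT2 one of 0.44 (0.17 to 0.71, adjusted p = 0.0157), neither of them called. The other 6 genes ran from -0.71 for GALNT11 to 0.85 for GALNT7, which had 12.13 ± 0.11 in T98G and 11.29 ± 0.21 in U87MG. GALNT11 and GALNT7 had an adjusted p under 0.05 short of 2-fold.

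Of 16 chain-extending enzymes, 0 were higher, 3 lower and 13 neither in T98G (18.8% called, against 13.6% of all genes). B3GALNT1, which makes the globoside Gb4 by adding N-acetylgalactosamine to a glycolipid, had 4.65, 4.51 and 4.27 in T98G, against 6.82, 6.77 and 6.36 in U87MG. It was 4.51-fold lower in T98G (log2 -2.17, SE 0.15, adjusted p = 2.64e-06). Its second probe set, with 3 T98G arrays under the bottom of the scale, was at least 5.59-fold lower when those values were set to 4.03. B4GALT6, an enzyme that makes lactosylceramide, the precursor of gangliosides, had 7.44, 7.41 and 7.60 in T98G, against 8.86, 8.92 and 9.02 in U87MG. It was 2.73-fold lower (log2 -1.45, SE 0.10, adjusted p = 3.14e-06), and its second probe set had -1.34. Its relative B4GALT5 had -0.46, with 0.26 on its dimmer probe set, neither called. Lactosylceramide itself was not measured.

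B4GALT1, the galactosyltransferase that caps N-glycan branches with galactose, had 7.49, 7.82 and 7.84 in T98G, against 9.28, 9.23 and 7.92 in U87MG. U87MG replicate 3 lay beside the T98G arrays, and the 2.13-fold lower level in T98G (log2 -1.09, SE 0.31, adjusted p = 0.0193) had the highest adjusted p of the 13 calls. It was lost without T98G replicate 1 (-0.98), U87MG replicate 1 (-0.86) or U87MG replicate 2 (-0.88). Of its 4 probe sets, at -1.66 to -0.38, 3 were called lower. B4GALNT1, the synthase of the gangliosides GM2 and GD2, had 9.10 ± 0.19 in T98G and 8.31 ± 0.23 in U87MG, a difference of 0.79 (0.46 to 1.11) short of 2-fold. B4GALT7, which adds the first galactose of the proteoglycan linkage region, had 0.73, and the other 4 of the family, B4GALT2 to B4GALT5, ran from -0.46 to 0.47. B3GNT2, the main polylactosamine extension enzyme, had 7.99 ± 0.09 in T98G and 7.81 ± 0.12 in U87MG (0.18, -0.06 to 0.43), and the other 2 B3GNT genes had 0.12 and 0.10. The 4 B3GALT genes had -0.34 to 0.17.

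Sialyl- and fucosyltransferases, which cap chains, had 0 genes higher, 1 lower and 22 neither of 23 (4.35% called, against 13.6% of all genes). ST6GALNAC5, a brain sialyltransferase of gangliosides, had 4.09, 3.90 and 3.92 in T98G and 4.71, 5.86 and 5.05 in U87MG. With 2 T98G arrays under the bottom of the scale it was at least 2.22-fold lower in T98G (log2 -1.24 as measured, SE 0.24, adjusted p = 0.00256), but leaving out U87MG replicate 2 brought it to -0.91 and short of 2-fold. ST8SIA1, the GD3 synthase, had 5.17, 4.97 and 6.24 in T98G, against 4.95, 4.51 and 4.24 in U87MG. T98G replicate 3 was more than 1 log2 unit above the other T98G arrays, and the difference of 0.89 (0.21 to 1.58, adjusted p = 0.0411) was not called. It was 0.50 without T98G replicate 3 (adjusted p = 0.0906), and its adjusted p was 0.111 without U87MG replicate 2 and 0.127 without U87MG replicate 3. Without T98G replicate 1 (1.04), T98G replicate 2 (1.14) or U87MG replicate 1 (1.09) it passed 2-fold and was called. The other 4 ST8SIA genes had 0.01 to 0.27.

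ST3GAL5, the synthase of the ganglioside GM3, had 6.90 ± 0.21 in T98G and 6.45 ± 0.16 in U87MG (0.45, 0.14 to 0.75). ST3GAL1, which caps mucin-type chains, had 9.84, 9.83 and 10.37 in T98G, against 9.53, 9.25 and 9.19 in U87MG (0.70, 0.33 to 1.06). ST6GAL1, which caps N-glycans, had 7.06 ± 0.22 in T98G and 6.27 ± 0.19 in U87MG (0.79, 0.47 to 1.11) on its brightest probe set. Its dimmer ones had -0.15 and 0.17. All 3 sialyltransferases had arrays that did not overlap and an adjusted p under 0.05, at 0.0241, 0.00660 and 0.00156, short of 2-fold. ST3GAL4 had 0.16 (-0.06 to 0.38) on its brighter probe set, while the other was called 3.11-fold higher in T98G (6.93 ± 0.29 in T98G and 5.30 ± 0.06 in U87MG). ST3GAL2, ST3GAL6, ST6GALNAC2 and ST6GALNAC4 had 0.18, -0.17, 0.26 and -0.29, all uncalled. FUT8, the enzyme of core fucosylation of N-glycans, had 9.14, 9.37 and 9.47 in T98G, against 10.09, 10.36 and 10.25 in U87MG. Its difference of -0.90 (-1.18 to -0.63, adjusted p = 0.000235) was short of 2-fold, as was that of FUT4, which makes Lewis x, at -0.79. The other 7 FUT genes had -0.12 to 0.33.

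Of the 7 MGAT genes, limma called 0, with 3 at an unadjusted p under 0.05, against 47.8% of all genes. MGAT5, which adds the branch linked to invasion in tumours, had 10.18, 10.02 and 10.29 in T98G, against 10.59, 10.99 and 10.89 in U87MG. Its arrays did not overlap, and the difference of -0.66 (-0.95 to -0.36, adjusted p = 0.00261) was short of 2-fold, with 0.14 on its dimmer probe set. MGAT1, which opens the way to complex N-glycans, had 0.32 (0.09 to 0.56, adjusted p = 0.0335). MGAT3, which adds the bisecting residue, had -0.16 (-0.46 to 0.14) with overlapping arrays, MGAT2 had 0.11 and MGAT4B had -0.31. MGAT4A and MGAT4C were under the bottom of the scale in both lines, as was B3GALT2 of the extension enzymes.

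Probe sets of the same gene did not always give the same difference. Of 36 members with several probe sets, 17 had differences on both sides of 0, and 0 had opposite calls. HS3ST1 ranged from -0.16 to 2.71, ST3GAL4 from 0.16 to 1.63, B4GALT1 from -1.66 to -0.38 and B3GALNT1 from -3.23 to -2.17. Read singly, 5 members were higher and 10 lower in T98G, the added 2 being HS3ST1 and ST3GAL4. Over all genes 1842 were called in this way, against 1624 in the main comparison. Of the 13 called members, 9 rested on 1 probe set. With probe sets averaged within a gene, 3 uncalled genes lost an adjusted p under 0.05, MGAT5 at -0.26 (adjusted p = 0.0611), ST6GAL1 at 0.27 (0.0739) and B4GALT5 at -0.0977 (0.499). By that mean EXTL3, GALNT10 and ST3GAL6 gained an adjusted p under 0.05, at -0.28 (0.0338), 0.39 (0.0404) and -0.34 (0.0336). HS3ST1 at 0.89 (9.89e-05) and ST3GAL4 at 0.90 (7.23e-05) gained one as well, and all of these were short of 2-fold. The dimmer probe sets of ST6GAL1 had -0.15 and 0.17.

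**Figure D4:**
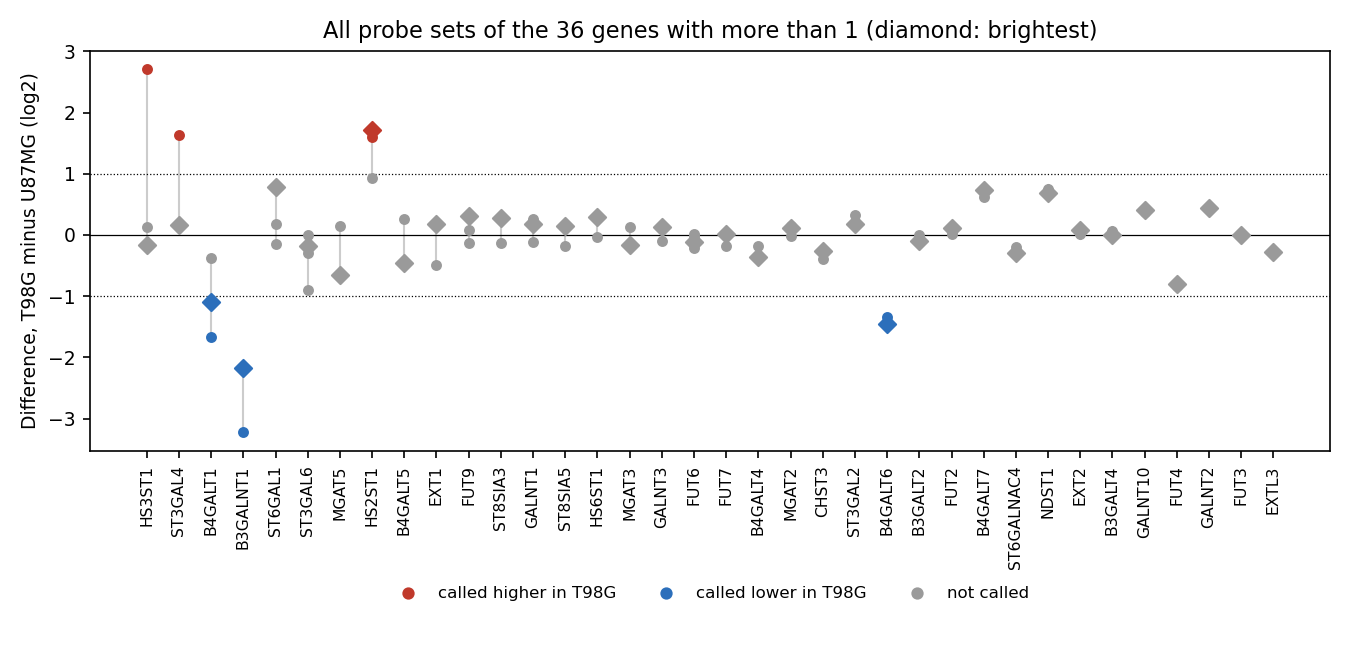
Difference of mean log2 levels (T98G minus U87MG) for every probe set of the 36 genes with more than 1, ordered by the width of their range from left to right; diamonds are the brightest probe sets, used in the main comparison, and circles the others. HS3ST1 spans -0.16 to 2.71, while the 2 probe sets of B4GALT6 lie at -1.45 and -1.34.

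Other genes of the same pathways were read from 6 lists of enzymes, transporters and lectins. Of 18 measured genes listed under glycosaminoglycan synthesis and editing, 2 were higher, 4 lower and 12 neither in T98G (median difference 0.08). These calls were 33.3% of the list, against 13.6% of all genes. The list also held TPST1, TPST2, GAL3ST1 and GAL3ST4, sulfotransferases that act on other molecules. Its counts and median are therefore not of glycosaminoglycan enzymes alone. XYLT1, which starts the proteoglycan chains by adding xylose, had 6.98, 7.22 and 7.55 in T98G, against 10.94, 11.15 and 10.82 in U87MG, 13.2-fold lower in T98G (log2 -3.72, SE 0.15, adjusted p = 7.01e-08). HAS2, which makes hyaluronan, had 3.66, 3.85 and 3.76 in T98G, all under the bottom of the scale, against 5.67, 6.93 and 6.32 in U87MG, and was at least 4.82-fold lower (adjusted p = 3.42e-05). Both genes were thus lower on every T98G array. HPSE, the enzyme that cuts heparan sulfate, and TPST1, a protein tyrosine sulfotransferase, were 2.15-fold and 2.10-fold higher, and without U87MG replicate 3 both were short of 2-fold (log2 0.95 and 0.91), as was TPST1 without T98G replicate 3 (0.99). Of 27 genes of sugar nucleotide and sulfate donor supply, 2 were higher, 0 lower and 25 neither (7.41% called, median 0.07). PAPSS2, which makes the sulfate donor used by all sulfotransferases, had 11.65, 11.27 and 11.47 in T98G, against 9.88, 10.00 and 9.59 in U87MG, 3.12-fold higher in T98G (log2 1.64, SE 0.14, adjusted p = 1.20e-05). GMDS, an enzyme of GDP-fucose synthesis, was 2.20-fold higher, but 0.85 on the log2 scale with the mean of its probe sets.

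Among 24 other glycan chain transferases, 0 were higher, 3 lower and 21 neither in T98G (12.5% called, against 13.6% of all genes, median -0.08). UGT8, which makes the myelin lipid galactosylceramide, had 4.13, 4.08 and 4.78 in T98G, against 9.50, 9.96 and 9.57 in U87MG, 40.6-fold lower in T98G (log2 -5.34, SE 0.20, adjusted p = 3.37e-08). GCNT1, which branches mucin-type chains, was 3.98-fold lower (6.97 ± 0.31 in T98G and 8.96 ± 0.25 in U87MG). UGCG, picked out after its values were seen because it makes the glucosylceramide on which B4GALT6 acts, had 0.29 (-0.15 to 0.72) and was not called. Of 28 genes of N-glycan assembly and trimming, 3 were higher, 1 lower and 24 neither (14.3% called, median 0.07). TUSC3, a subunit of an oligosaccharyltransferase complex, had 11.32, 11.45 and 11.26 in T98G, against 6.21, 5.54 and 6.01 in U87MG, 42.8-fold higher in T98G (log2 5.42, SE 0.16, adjusted p = 1.04e-08). MAN1A1, a Golgi mannosidase that trims N-glycans before MGAT1 acts, had 6.10, 6.39 and 6.49 in T98G, against 10.50, 10.63 and 10.33 in U87MG, 17.9-fold lower (log2 -4.16, SE 0.13, adjusted p = 1.55e-08). These 2 genes were far apart on all arrays in opposite directions. ALG8, which adds glucose to the lipid-linked precursor, was 2.93-fold higher.

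Of 22 genes of sialidases and lysosomal glycan breakdown, 1 was higher, 3 lower and 18 neither in T98G (18.2% called, against 13.6% of all genes, median 0.01). FUCA1, a lysosomal fucosidase, was 2.15-fold higher (8.95 ± 0.32 in T98G and 7.85 ± 0.32 in U87MG), and short of 2-fold without T98G replicate 3 (log2 0.98) or U87MG replicate 3 (0.94). IDS, the sulfatase of iduronic acid, and ASAH1, the acid ceramidase, were 2.82-fold and 2.74-fold lower on the brightest of 9 and 4 probe sets. Neither call held with the mean of the probe sets, at -0.82 for IDS and -0.87 for ASAH1. ASAH1 cuts ceramide and not a glycan. The counts and median of this list are therefore not of glycan-breakdown enzymes alone. Of 13 genes listed under glycan-binding receptors, 1 was higher, 0 lower and 12 neither (7.69% called, median 0.09). The called gene, LGALS3BP, is a secreted ligand of galectins and not itself a receptor. It had 12.61, 12.64 and 12.69 in T98G, against 11.30, 11.48 and 11.55 in U87MG, 2.30-fold higher.

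**Figure D5:**
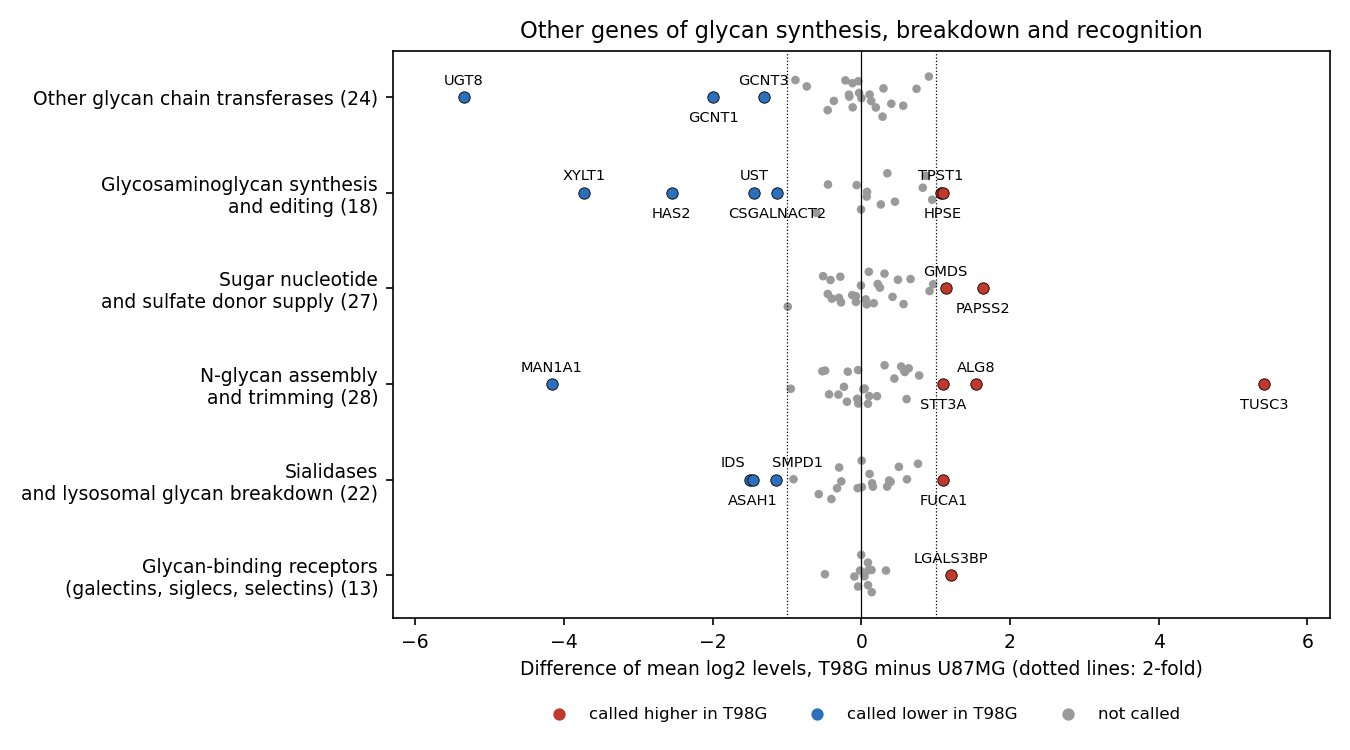
Differences of mean log2 levels (T98G minus U87MG) for every measured gene of 6 lists of related genes, with the number of genes in brackets; red and blue points were called higher and lower in T98G and grey points were not called. UGT8 and MAN1A1 lie at -5.34 and -4.16 and TUSC3 at 5.42, while 12 of 13 genes listed under glycan-binding receptors were not called.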

How the data were processed

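Per the labels' protocols, TRIzol RNA received biotin in a one-cycle reaction before hybridisation. The deposited unit is log2 per probe set, 2.90 to 14.9 with medians of 7.55 to 7.65 by array, and RMA and limma are named without versions, per the submitters' processing notes. RMA equalises the distributions of the arrays, which removes any difference in overall RNA amount, and its background step can compress differences of dim transcripts. Detection calls were not used, and the number of arrays limits the precision (median residual SD 0.146).

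Of 22277 probe sets, 19064 had 1 gene in the platform annotation, and 19052 matched the RefSeq gene table of GRCh38.p14, which left every member's symbol as listed. The lines were compared over 11963 genes by limma 3.58.1 in R 4.3.3 (lmFit, eBayes, two-sided, 4 residual degrees of freedom, Benjamini-Hochberg over all genes). An exact permutation test of 3 against 3 arrays cannot go below p = 0.1. Where arrays read under 4.03, folds are bounds with those values set to 4.03. The steps were tested on simulated data. The members, the lists and the tests were chosen with earlier results of these data known. Genes named with values were the called members whose arrays did not overlap, the smallest p in each family without a call, 18 members set by name, and up to 2 called genes per direction of each list. Other members, HS3ST1, HS3ST3B1 and CHST12 among them, were added with their values known to account for all 81. Alternatives were other thresholds, limma's treat, filters, probe set rules, normalizations, variance models, the replicate number as a block and each array left out.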

Additional observations from a re-analysis of the deposited data

How the results depend on the processing

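Of the 13 called members, 11 kept their call under each of 16 alternatives that gave them a value, the filter on dim probe sets left aside. Having no minimum fold only loosens the rule and could not remove a call. With probe sets read singly each gene was still scored on its brightest one, and averaging left the values of the 9 called members with 1 probe set unchanged. Calls kept in these ways add little. B4GALT1 lost its call at an adjusted p under 0.01 (adjusted p = 0.0193), under treat and without any of 3 arrays, and ST6GALNAC5 lost its call under treat (adjusted p = 0.0853) and without U87MG replicate 2. With no minimum fold, 17 members were higher and 20 lower in T98G among 4942 of all genes. The filter on dim probe sets kept means over 7.79 in at least 1 line. It left 40 members with a value and 6 lower in T98G, among 1320 genes called, against 1624 in the main comparison. It removed B3GALNT1, GALNT6, HS3ST2 and ST6GALNAC5 from the lower ones. Of the 9 called members that passed it, 7 did so through their higher line only, so their calls under it support nothing. Without multiply matching probe sets 49 members had a value and 6 were lower, among 1098 genes called. B3GALNT1, B4GALT1, GALNT12 and ST6GALNAC5 were removed from the lower ones and HS2ST1 from the higher ones. Read singly, probe sets gave 5 members higher, among 1842 genes called. Leaving out each array in turn gave 3 to 4 members higher, 8 to 10 lower and 1609 to 1653 genes called. Over all 81 members, 21 uncalled ones and 0 called ones turned sign under some alternative, none with an adjusted p under 0.05 on both sides. Among the named genes, EXT1 turned to -0.15 with the mean of probe sets, MGAT3 to 0.13 without multiply matching probe sets, EXT2 to -0.0724 without U87MG replicate 3, in a range up to 0.174 with each array left out, and HS3ST1, at -0.16 as reported, to 0.89 with the mean of probe sets (adjusted p = 9.89e-05). The cause was not tested. The deviations of arrays with the same replicate number correlated at 0.137, 0.0767 and 0.0758, not all over 0.1, and the labels state no shared day or batch, so the numbers were not treated as pairs. Each array did correlate best with its own number, a hint of pairing from the data. With the replicate number as a block 3 members were higher and 10 lower among 1626 genes. Members near the bottom of the scale have differences that RMA may compress.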

Other observations

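2 further probe sets carry a gene of these families together with another gene, so they were left out of the comparison. The probe set listed for GALNT8 and KCNA6 had a mean of 7.10 in T98G and 6.99 in U87MG, and the one listed for GALNT4 and its read-through gene with POC1B had 6.01 in T98G and 6.08 in U87MG. The differences of 0.11 and -0.07 are values only and were not tested.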
